A study of Mus musculus with 16 samples.

Results

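The chromatin of vehicle-treated (Veh) mouse CD8+ T cells was described by how 6 antibodies combined with each other in chromatin immunoprecipitation followed by sequencing (ChIP-seq). They recognise RNA polymerase II (Pol II), the demethylase LSD1, acetylated H3K27 (H3K27ac) and the mono-, di- and trimethylated forms of H3K4 (H3K4me1, H3K4me2 and H3K4me3). These 6 Veh peak lists were chosen by their labels from the 16 samples of the series, of which 12 carry a list, and they hold 109685 peaks. Peaks were placed on 31603 promoters of 26142 genes, each promoter being the window of 1 kb either side of a distinct transcription start site (TSS) of a curated RefSeq transcript in mm10. Peaks whose nearest edge lay more than 2.5 kb from every TSS were called distal, and merging them where they overlapped gave 37724 distal regions. The cells came from spleens of OT1 mice, in which a transgene gives the T cells 1 receptor, specific for ovalbumin. Anti-CD3 and anti-CD28, together with 20 ng/mL IL-2, activated them over 48 h, and IL-2 alone expanded them over 3 more days, with vehicle added throughout where other samples received an LSD1 inhibitor. Each antibody had 1 library, so no spread between replicates could be measured and no test was run. Bulk chromatin of a culture cannot tell a mark present in few cells from a weak mark in many.

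LSD1, the product of Kdm1a, removes methyl groups from mono- and dimethylated lysine 4 of histone H3 and works within complexes with CoREST and the deacetylases HDAC1 and HDAC2. H3K4me1 is the usual mark of enhancers and of the flanks of promoters, H3K4me2 lies at both, and H3K4me3 marks promoters rich in CpG or in use. H3K27ac is found where promoters and enhancers are active. Pol II transcribes protein-coding genes.

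The sequences below come from the GRCm38.p6 reference, which is mm10, and are printed 5′ to 3′. As examples of different combinations, 5 promoters are given from 250 bases before to 50 bases after the TSS, on the strand of the gene. Every CpG is in capitals. Snrpe held LSD1, H3K4me2, H3K4me3, H3K27ac and Pol II, Xpr1 held all but H3K27ac, Steap3 held H3K4me1 alone, Gzmb held all but H3K4me2, and Cd3e held H3K4me3, H3K27ac and Pol II without LSD1. The number of CpGs was 24 in Snrpe, 17 in Xpr1, 7 in Steap3, 2 in Gzmb and 8 in Cd3e. For their combinations, Gzmb and Cd3e are poor in CpG, as given further on.
Snrpe, chr1:133610231-133610530, minus strand: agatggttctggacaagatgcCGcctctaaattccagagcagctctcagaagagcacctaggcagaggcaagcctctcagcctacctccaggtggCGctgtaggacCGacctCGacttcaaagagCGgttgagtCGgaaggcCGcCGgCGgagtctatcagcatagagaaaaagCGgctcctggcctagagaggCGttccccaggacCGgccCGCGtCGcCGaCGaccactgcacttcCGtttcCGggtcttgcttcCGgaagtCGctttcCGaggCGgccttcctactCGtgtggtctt
Xpr1, chr1:155417395-155417694, minus strand: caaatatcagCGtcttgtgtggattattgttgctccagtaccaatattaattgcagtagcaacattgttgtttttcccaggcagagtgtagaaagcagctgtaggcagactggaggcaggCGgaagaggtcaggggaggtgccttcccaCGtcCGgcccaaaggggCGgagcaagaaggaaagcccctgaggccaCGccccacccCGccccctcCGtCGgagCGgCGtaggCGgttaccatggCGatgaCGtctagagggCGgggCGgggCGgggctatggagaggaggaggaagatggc
Steap3, chr1:120258829-120259128, minus strand: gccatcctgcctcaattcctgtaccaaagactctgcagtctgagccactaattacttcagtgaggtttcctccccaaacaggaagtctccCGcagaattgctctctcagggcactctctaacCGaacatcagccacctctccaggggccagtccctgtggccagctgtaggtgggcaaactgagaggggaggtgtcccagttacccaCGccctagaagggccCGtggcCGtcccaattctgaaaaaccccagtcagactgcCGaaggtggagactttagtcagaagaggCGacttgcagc
Gzmb, chr14:56262285-56262584, minus strand: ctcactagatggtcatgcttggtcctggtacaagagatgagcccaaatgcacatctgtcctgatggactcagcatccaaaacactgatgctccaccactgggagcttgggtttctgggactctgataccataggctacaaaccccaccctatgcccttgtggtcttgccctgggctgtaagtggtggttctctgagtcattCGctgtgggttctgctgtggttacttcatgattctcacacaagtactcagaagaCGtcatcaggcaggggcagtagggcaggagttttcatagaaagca
Cd3e, chr9:45009562-45009861, minus strand: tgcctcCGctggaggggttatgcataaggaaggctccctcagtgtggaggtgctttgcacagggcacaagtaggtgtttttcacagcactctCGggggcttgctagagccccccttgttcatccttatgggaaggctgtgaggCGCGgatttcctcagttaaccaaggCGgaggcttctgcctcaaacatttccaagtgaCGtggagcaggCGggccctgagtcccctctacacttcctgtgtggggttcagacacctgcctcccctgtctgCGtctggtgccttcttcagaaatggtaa

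Away from promoters, LSD1 summits are shown for 3 of the strongest regions of LSD1 with H3K4me1 and for the strongest LSD1 peaks near Tox, Maf and Ifng, as examples for the letters counted further on, and they were picked with their letters known. Each line gives 150 bases of the plus strand around the summit, and the capitals mark TGTGGT on either strand, the core letters bound by RUNX factors. The region named for Yae1d1, its nearest gene, was intergenic and held 4 matches. The Map2k5 region was in an intron of Map2k5 with 2 matches, and the Plxna1 region was in an intron of Chchd6 with 1 match. The Tox region was in an intron of Tox and the Maf region was intergenic, each with 1 match. The Ifng region was intergenic and held 0 matches, as did the windows of Msh4, Tspan32, Prf1 and Bach2, which are not printed.
Yae1d1, chr13:17975933-17976082: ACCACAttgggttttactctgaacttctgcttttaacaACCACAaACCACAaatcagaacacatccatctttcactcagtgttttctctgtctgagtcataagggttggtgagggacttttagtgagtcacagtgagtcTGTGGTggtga
Map2k5, chr9:63275235-63275384: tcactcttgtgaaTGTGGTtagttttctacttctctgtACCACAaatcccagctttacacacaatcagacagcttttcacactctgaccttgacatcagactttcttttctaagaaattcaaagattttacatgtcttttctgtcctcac
Plxna1, chr6:89421653-89421802: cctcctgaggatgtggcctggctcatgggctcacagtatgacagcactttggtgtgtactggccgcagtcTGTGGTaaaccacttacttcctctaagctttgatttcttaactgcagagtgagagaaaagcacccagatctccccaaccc
Tox, chr4:6950445-6950594: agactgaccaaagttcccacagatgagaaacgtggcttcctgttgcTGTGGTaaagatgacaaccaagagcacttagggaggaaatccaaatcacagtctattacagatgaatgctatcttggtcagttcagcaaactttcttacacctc
Maf, chr8:115514560-115514709: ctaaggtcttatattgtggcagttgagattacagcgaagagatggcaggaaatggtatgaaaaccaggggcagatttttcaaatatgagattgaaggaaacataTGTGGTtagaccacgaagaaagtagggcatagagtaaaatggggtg
Ifng, chr10:118419097-118419246: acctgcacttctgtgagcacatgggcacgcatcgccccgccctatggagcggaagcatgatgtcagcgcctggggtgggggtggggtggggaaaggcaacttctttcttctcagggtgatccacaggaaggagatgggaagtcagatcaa

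A smaller class of LSD1 peaks had no histone mark at all, and for 5 promoters of that class the 29 bases around the core of RE1, the element bound by the repressor REST, are shown. The 13 bases of the core, of which the 2 after GCACC were left free in the search, are in capitals. All 5 are centred within 52 bases of the LSD1 summit, whereas the match at Golga7b, which is not printed, lies 97 bases away. The matches of Npas4, Syp and Snap25 are in introns of those genes, that of Vstm2l is intergenic, and that of Chrnb2 is in a part of an exon that is not coding.
Npas4, chr19:4989156-4989184, plus strand: gggattcaGCACCGCGGACAGctcctgcg
Vstm2l, chr2:157913508-157913536, minus strand: agggttcaGCACCGTGGACAGatccccgc
Chrnb2, chr3:89764450-89764478, minus strand: cggcttcaGCACCACGGACAGcgctccgt
Syp, chrX:7638733-7638761, plus strand: gcgctccaGCACCGTGGACAGagcccggc
Snap25, chr2:136714284-136714312, plus strand: ggagctcaGCACCCTGGACAGgagtgctc

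The 6 lists differed in length and in where their peaks lay. LSD1 had 21252 peaks, H3K4me1 34387, H3K4me2 15219, H3K4me3 15779, H3K27ac 7410 and Pol II 15638. The share that was distal was 55.8% for LSD1, 69.5% for H3K4me1, 53.5% for Pol II, 37.5% for H3K27ac, 34.4% for H3K4me2 and 25.4% for H3K4me3. LSD1 peaks were narrower away from promoters, with a median width of 394 bp against 568 bp at promoters, and H3K4me3 peaks shrank from 1192 to 594 bp, whereas H3K4me1 peaks were wider at distal sites, 880 against 701 bp. Pol II peaks were the narrowest, with a median of 360 bp at promoters and 222 bp at distal sites. The LSD1 and Pol II lists begin at a −log10 p of 3, and the histone lists begin at a −log10 q of 3. Of the peaks, 60.3% of LSD1 and 45.5% of Pol II reach the level of the histone lists. Between 54 peaks in H3K4me1 and 156 in H3K4me2 and H3K4me3 had edges within 20 bp of those of a peak of another antibody, and leaving them out moved none of the 12 main values by more than 1 percentage point. Of the 2 Veh input libraries and the 2 sequencers named in the labels, none is tied to an antibody by name. In sample order, LSD1, H3K4me1 and H3K4me2 follow 1 input, and H3K4me3, H3K27ac and Pol II follow the other. The study counts optical duplicates for the former libraries and none for the latter. The part of such a split in any overlap was not tested and cannot be told apart from that of the antibodies.

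At promoters, peaks of several antibodies lay on the same windows. H3K4me3 was on 49.4% of the 31603 promoters, H3K4me2 on 38.2%, LSD1 on 35.2%, H3K4me1 on 29.4%, Pol II on 28.3% and H3K27ac on 20.3%. No antibody had a peak on 43.2% of promoters (95% interval 42.6 to 43.7), and all 6 were on 3.14%, or 993 promoters, a share that ranged from 1.01% in windows of 500 bp to 6.06% in windows of 2 kb and was 0.108% with lists cut to equal length. All intervals are for counting error only, and neighbouring TSSs are not independent. Of the 64 combinations possible, 62 were seen. The 10 most frequent ones took 11750 promoters, or 65.4% of the 17954 with a peak.

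The most frequent combination was LSD1 with the 3 methylation states of H3K4 and with neither H3K27ac nor Pol II. It covered 2266 promoters, or 7.17% (6.89 to 7.46). By the mean rank of fold within each list, its leading genes were Eid2b, Hs1bp3 and Rcan1, an inhibitor of calcineurin. At Rcan1 the fold enrichment over local background was 7.13 for LSD1, 5.25 for H3K4me1, 7.83 for H3K4me2 and 11.4 for H3K4me3. The same marks without LSD1 covered 1217 promoters, or 3.85%, led by Arvcf, Lzts3 and Ablim3. LSD1 was therefore on 65.1% of the 3483 promoters that held these 3 marks and neither H3K27ac nor Pol II.

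The next 2 combinations held LSD1 together with H3K27ac and Pol II. LSD1 with H3K4me2, H3K4me3, H3K27ac and Pol II covered 1491 promoters (4.72%), and the same without H3K4me2 covered 1293 (4.09%). Snrpe, which encodes a core protein of the spliceosome, led the former with folds of 6.55 for LSD1, 5.85 for H3K4me2, 7.82 for H3K4me3, 5.36 for H3K27ac and 6.44 for Pol II, followed by Nemp2 and Ociad1. Ccdc59 and Mettl25, which start in opposite directions from 1 shared window, led the latter with an LSD1 fold of 10.3, ahead of Med7, a subunit of the Mediator complex, with an LSD1 fold of 7.73 and an H3K4me3 fold of 9.02. H3K4me3 peaks of this combination were wide, with a median of 1821 bp.

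All 6 antibodies met on genes such as H4c17, a histone H4 gene with a Pol II fold of 20.6, Pick1 and Ufl1. LSD1 with H3K4me2 and H3K4me3 alone covered 1011 promoters (3.20%), among them Mapkbp1, Mtx3 and the kinase gene Mapk8, with LSD1 folds of 9.11, 6.93 and 8.85. LSD1 with the 3 methylation states and Pol II covered 951 (3.01%), led by Xpr1, a phosphate exporter gene, Cenps and Rab5b. H3K4me1 alone covered 1049 promoters (3.32%), with Steap3, 4930524B15Rik and Pdzk1 at folds of 6.97, 6.71 and 6.69. H3K4me3 alone was on 409 promoters (1.29%).

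The combinations differed in base composition, a property the peak lists did not use. The CpG observed/expected ratio within 500 bp of the TSS had a median of 0.223 at promoters with no peak and 0.314 at those with H3K4me1 alone. It was 0.638 for the 3 methylation marks without LSD1 and 0.747 for the same marks with LSD1. By the number of antibodies on a promoter, the median rose from 0.372 with 1 to 0.624 with 2, 0.709 with 3 and 0.764 with 4, then held at 0.769 with 5 and 0.755 with all 6. Steap3, printed above, had a ratio of 0.238 and Snrpe 0.839. Gzmb and Cd3e, with 0.145 and 0.291, lay far below the medians of their combinations, 0.753 and 0.774.

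**Figure D1:**
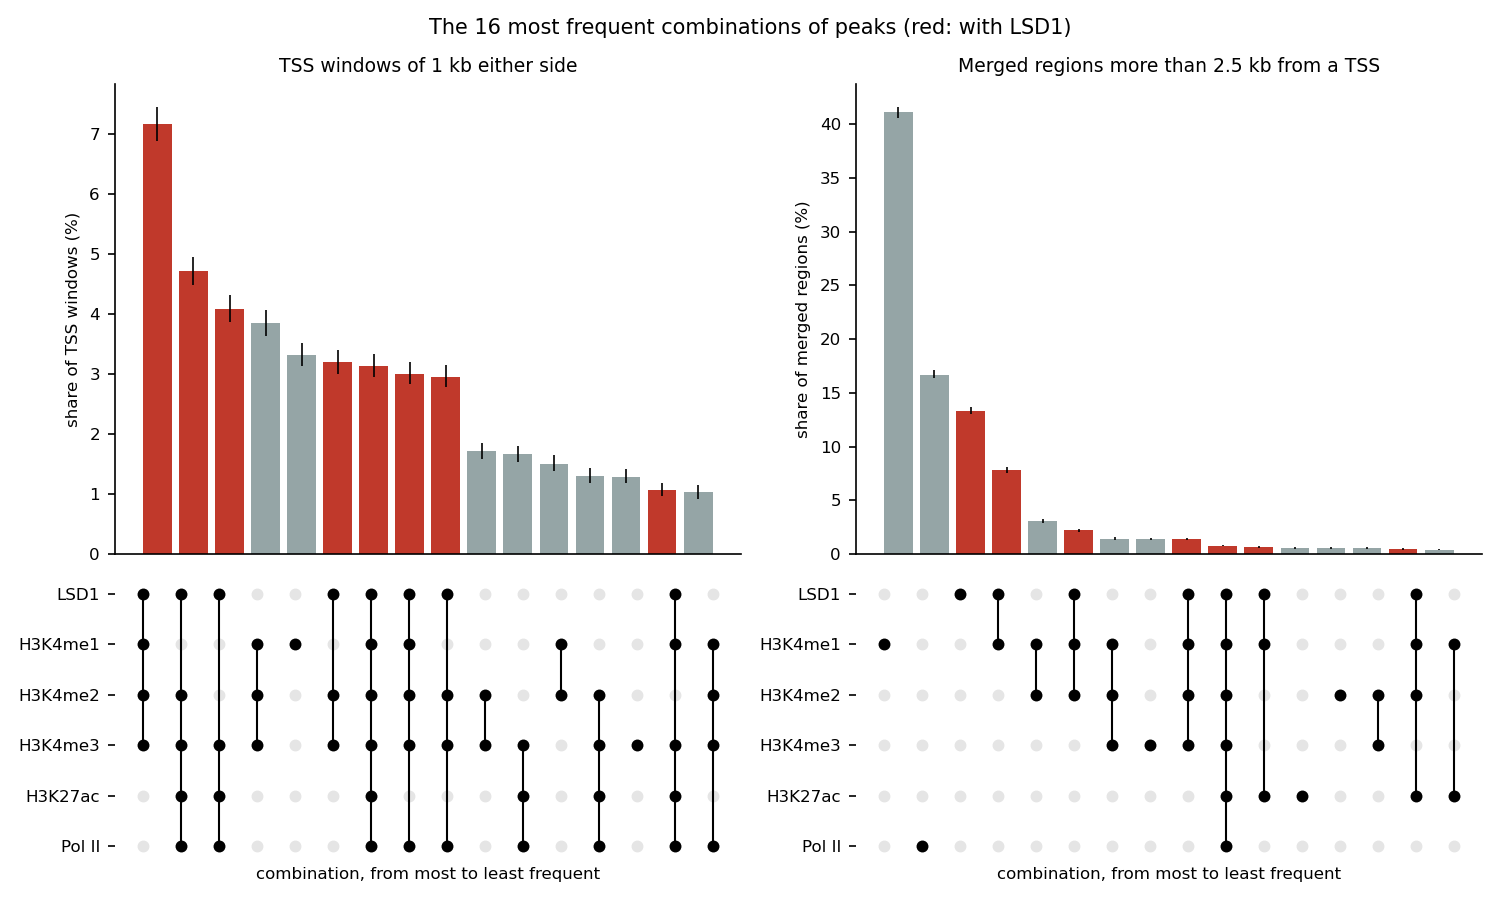
Bars give the share (%, y axis) of TSS windows (left) and of merged distal regions (right) for the 16 most frequent combinations that hold a peak, with Wilson 95% intervals, and the filled dots below each bar name its antibodies. Combinations with LSD1, in red, hold the leading bar at promoters (7.17%), whereas at distal regions H3K4me1 alone leads with 41.1%.

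Nearly all promoters with LSD1 also held H3K4me3. Of the 11139 promoters with an LSD1 peak, 94.9% (94.5 to 95.3) also had H3K4me3, against 24.7% of promoters without LSD1. H3K4me2 was on 73.6% of LSD1 promoters, Pol II on 57.6%, H3K4me1 on 47.9% and H3K27ac on 41.8%. Read in the other direction, LSD1 was on 72.6% of H3K27ac promoters, 71.9% of Pol II promoters, 67.9% of H3K4me2 promoters, 67.7% of H3K4me3 promoters and 57.4% of H3K4me1 promoters, each to be set against the 35.2% of all promoters that held it. Of the promoters without H3K4me3, 3.54% had LSD1. The share with LSD1 grew with the number of the other 5 antibodies present, from 1.11% with 0 to 22.4% with 1, 52.4% with 2, 67.9% with 3, 75.2% with 4 and 75.5% with all 5. The last 2 of these values differed by less than their intervals. With all lists cut to the 7410 peaks of the shortest, LSD1 was on 28.9% of H3K4me3 promoters, and H3K4me1 was on 9.82% of LSD1 promoters.

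Among the marks themselves, H3K27ac and Pol II hardly occurred outside H3K4me3. H3K4me3 was on 99.2% of H3K27ac promoters and 98.3% of Pol II promoters, and Pol II was on 86.7% of H3K27ac promoters. H3K4me1 was less frequent on H3K27ac and Pol II promoters than on H3K4me3 promoters as a whole. It was on 47.1% of H3K4me3 promoters but on 33.6% of H3K27ac promoters and 37.0% of Pol II promoters. Promoters without H3K27ac held it less often still, in 28.4% of cases, and those without Pol II in 26.4%.

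**Figure D2:**
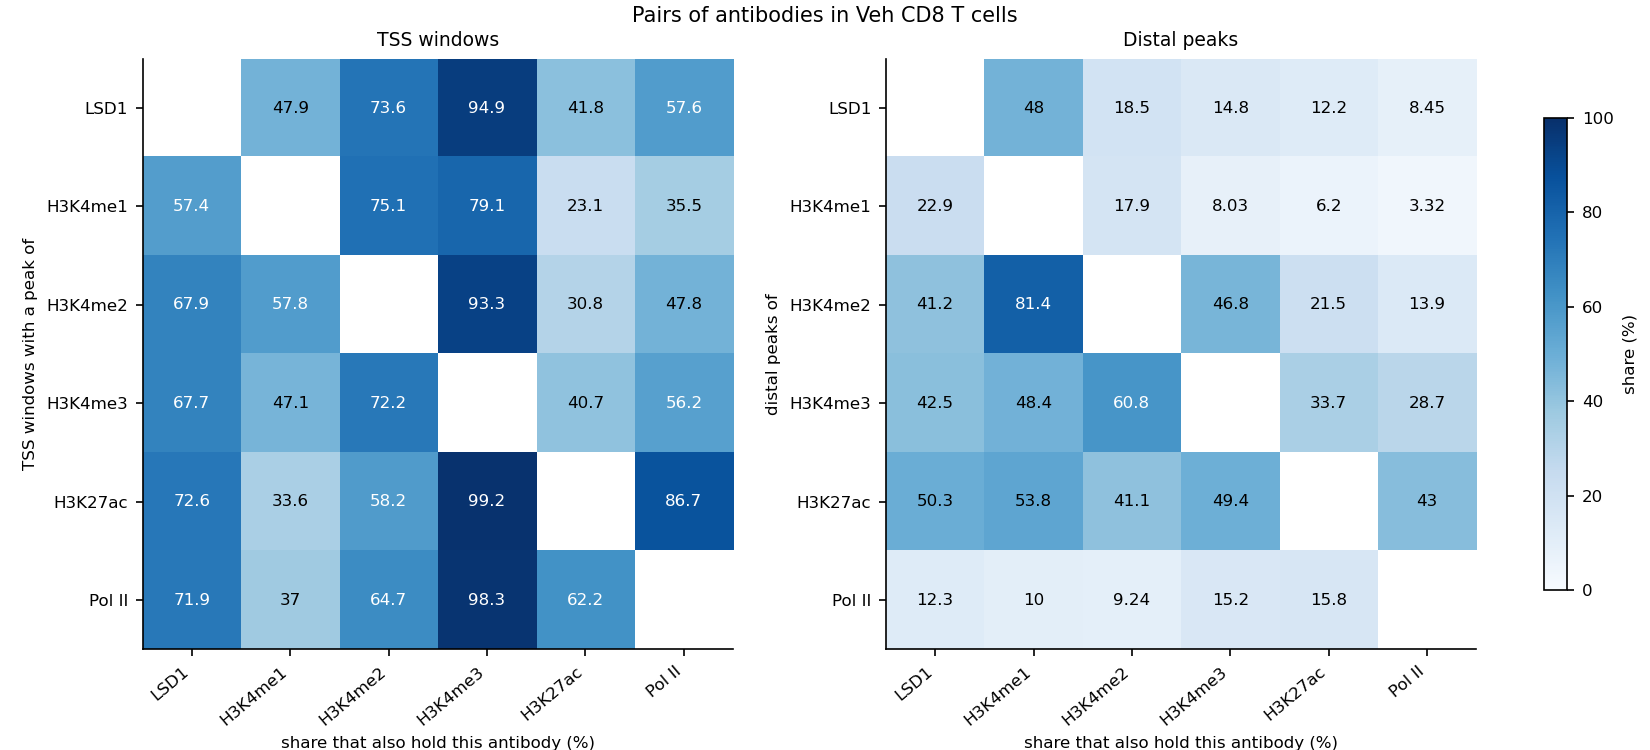
Each cell gives the share (%) of TSS windows (left) or distal peaks (right) of the antibody in the row that also held the antibody in the column. At promoters the H3K4me3 column runs from 79.1 to 99.2%, and at distal sites the highest share of LSD1 peaks is the 48.0% with H3K4me1.

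H3K4me3 promoters were then divided by activity marks. H3K27ac and Pol II were both present on 5528, Pol II alone on 3248, H3K27ac alone on 825 and neither on 6019. LSD1 was on 74.5%, 70.1%, 62.4% and 60.9% of them. The difference between both and neither was 13.6 percentage points (11.9 to 15.2). Where LSD1 was bound, its median fold was nearly level over these groups, at 4.39, 4.54, 4.29 and 4.45. H3K4me1 ran in the opposite direction, on 32.7% of promoters with both marks and on 62.8% with neither, as did H3K4me2 at 58.2% and 83.7%. The median width of the H3K4me3 peak was 1598 bp with both marks and 947 bp with neither.

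The size of the LSD1 difference moved with CpG content, with the strength of the H3K4me3 peak and with H3K4me2. In the quartile of H3K4me3 promoters with the lowest CpG ratio, LSD1 was on 57.6% of those with both activity marks and on 41.1% of those with neither. In the highest quartile the shares were 82.0% and 81.5%, a difference of 0.465 points whose interval ran from −2.31 to 3.30. In the 2 quartiles between, the difference was 10.4 and 5.69 points. Over the quartiles of H3K4me3 −log10 p, from low to high, the difference was 11.8, 5.90, 5.84 and 5.95 points. LSD1 was on 70.7% of promoters with both activity marks but without H3K4me2 and on 39.6% of those with neither activity mark and without H3K4me2, while with H3K4me2 the shares were 77.2% and 65.1%. When each list was shortened to the 7410 peaks of the shortest list, the difference between both and neither was −0.0745 points, with an interval from −2.28 to 2.11, so no difference was seen at equal list length.

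LSD1 summits lay just downstream of the TSS. At 21230 TSSs with no other TSS within 2 kb, 5460 had LSD1 and H3K4me3, and the summit was a median of 130 bp downstream of the TSS, with 67.5% of summits on the downstream side and 60.5% within 300 bp. Pol II summits were nearer to the TSS and less spread, with a median of 60.0 bp and 84.6% within 300 bp. At the 3100 promoters that held both, LSD1 was a median of 64.0 bp downstream of Pol II, with quartiles at −131 and 282 bp. The median LSD1 position was 106 bp with both activity marks and 150 bp with neither.

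Over the base pairs around the TSS, the marks formed layers. At 2365 such TSSs with H3K4me3, H3K27ac and Pol II, H3K4me3 covered the largest share of them at 300 bp downstream (98.5%), H3K27ac at 200 bp (75.8%), LSD1 at 200 bp (52.0%), Pol II at 100 bp (77.6%) and H3K4me2 at 600 bp (33.6%). H3K4me1 covered 3.59% of these TSSs and rose to 16.3% at 800 bp upstream. At 3642 TSSs with H3K4me3 and neither activity mark this hollow was not seen. There H3K4me1 covered 33.3% of TSSs and 37.2% at 300 bp downstream, and H3K4me2 covered 52.2% of TSSs, against 21.5% at the former, with LSD1 again highest at 200 bp (42.6%). Of promoter LSD1 summits, 19.7% lay inside an H3K4me1 peak, 82.1% inside H3K4me3, 46.4% inside H3K4me2 and 20.3% inside H3K27ac.

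**Figure D3:**
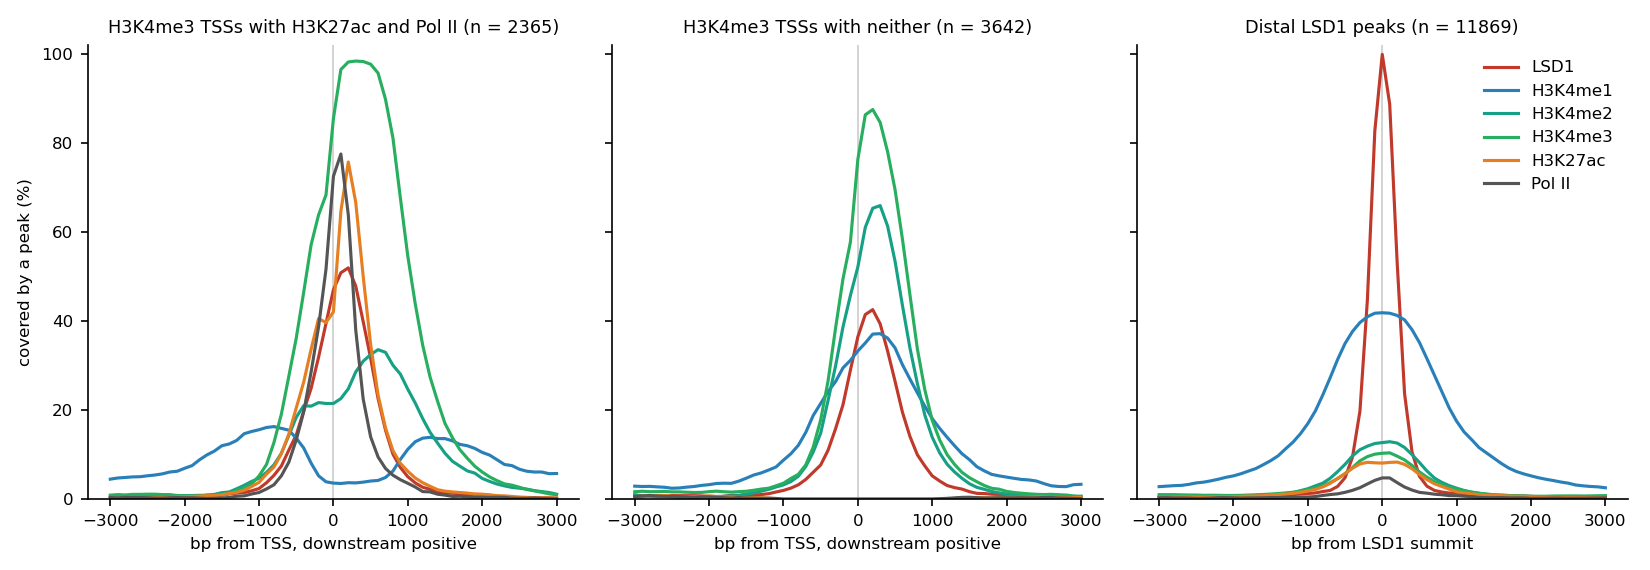
The y axis gives the share (%) of sites covered by a peak of each antibody against distance in bp from the TSS (left and middle, downstream positive) or from the LSD1 summit (right). H3K4me1 dips to 3.59% at TSSs with H3K27ac and Pol II but covers 33.3% of TSSs with neither, and at distal LSD1 summits it reaches 41.9% at the centre.

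Genes of CD8+ T cells and of other lineages were placed on these combinations through lists, with 1 TSS per gene, that with most antibodies. Over 20966 protein-coding genes, the background was LSD1 on 40.7%, H3K4me1 on 32.5%, H3K4me2 on 43.8%, H3K4me3 on 56.2%, H3K27ac on 22.8% and Pol II on 32.9%, with 37.2% free of peaks. The list of CD8 T cell identity joined activity marks to few H3K4me2 peaks. LSD1 was near the share of all coding genes but below the 67.7% of H3K4me3 promoters. H3K4me3 was on 15 of 15 genes, H3K4me1 on 12, H3K27ac on 11, Pol II on 11, LSD1 on 5 and H3K4me2 on 1, Lck. The median CpG ratio of the list was 0.294, against 0.600 over all coding genes. Of its 10 genes with H3K4me3, H3K27ac and Pol II, 3 had LSD1, beside 74.5% of all such promoters and 57.6% of those in the lowest CpG quartile. Cd3e, Cd247, Lck, Zap70, Thy1 and Ptprc, all with H3K4me3, H3K27ac and Pol II, had no LSD1 peak. At Zap70, the kinase that is recruited to the T cell receptor, folds were 3.48 for H3K4me1, 4.56 for H3K4me3, 3.22 for H3K27ac and 7.13 for Pol II. LSD1 was on Cd8a (fold 4.64, with H3K4me1 at 3.43 and H3K4me3 at 3.50), Cd8b1 (3.07), Cd5 (2.59), Lat (4.92) and Cd28 (4.05).

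Effector and cytokine genes were spread over many combinations. Of 18, LSD1 was on 8, H3K4me1 on 11, H3K4me3 on 11, Pol II on 8, H3K4me2 on 5 and H3K27ac on 4. Prf1, which encodes the pore-forming perforin, carried all 6 antibodies, with folds of 5.32 for LSD1, 2.60 for H3K4me1, 3.65 for H3K4me2, 6.02 for H3K4me3, 5.60 for H3K27ac and 5.43 for Pol II. Gzmb, the gene of the protease granzyme B, had folds of 4.96 for LSD1, 3.53 for H3K4me1, 3.82 for H3K4me3, 3.30 for H3K27ac and 3.78 for Pol II. Ifng, which encodes the cytokine interferon gamma, had LSD1 at 5.54 with H3K4me1 at 3.66 and H3K4me3 at 3.71 but neither H3K27ac nor Pol II. Tnf had Pol II at 14.3 with H3K4me1, H3K4me3 and H3K27ac but no LSD1. Xcl1 held LSD1 (5.82) and H3K4me1 (4.73) alone, Gzma and Ccl5 held H3K4me1 alone, and Gzmk and Klrg1 held no peak.

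Inhibitory receptor genes mostly carried H3K4me3, on 11 of 12, with LSD1 on 6, H3K4me1 on 7, H3K4me2 on 7, Pol II on 4 and H3K27ac on 3. Tigit held all 6 antibodies with an LSD1 fold of 7.25. Pdcd1, the gene of PD-1, held H3K4me1 (2.49), H3K4me3 (6.07) and Pol II (6.04) without LSD1. Tox, which encodes a factor of exhausted T cells, held LSD1 (5.06), H3K4me2 (3.83) and H3K4me3 (4.19), as did Cd200 and Nt5e. Memory and progenitor genes had LSD1 on 9 of 16, H3K4me3 on 15, H3K4me2 on 7, H3K4me1 on 6, Pol II on 6 and H3K27ac on 3. Tcf7, Foxp1 and S1pr1 shared H3K4me1, H3K4me2 and H3K4me3 without LSD1. Eomes held LSD1 (5.37), H3K4me2, H3K4me3, H3K27ac and Pol II. The curated TSS of Bach2 was without a peak, but whether the gene has a start outside the curated set was not tested.

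Of 18 genes of the LSD1 complexes and their partners, 14 (77.8%) held LSD1 themselves, beside 40.7% of coding genes, H3K4me3 was on 17, H3K4me2 on 13, Pol II on 10, H3K27ac on 7 and H3K4me1 on 5. Their CpG ratio had a median of 0.802. Among H3K4me3 promoters grouped by activity marks, LSD1 was on 69.4% to 82.0% in the highest CpG quartile and on 67.7% to 79.2% in the next. Kdm1a held LSD1 at 4.40, H3K4me2 at 4.33 and H3K4me3 at 6.33. Phf21a, which encodes the subunit that reads unmethylated H3K4, had the highest LSD1 fold of the list, 11.8, followed by Zeb1 (9.60), Rcor2 (8.41) and Hdac2 (7.97). Rcor1, Chd4 and Mta1 had H3K4me3 without LSD1, and Gfi1b, whose product recruits LSD1 in blood precursors, had no peak.

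Housekeeping lists joined H3K4me3 to Pol II, with few H3K4me1 peaks in the ribosomal protein and cell cycle lists but not in the glycolysis list. Of 20 ribosomal protein genes, H3K4me3 and Pol II were on 20, H3K27ac on 18, LSD1 on 13, H3K4me2 on 10 and H3K4me1 on 1, Rps6. The highest Pol II folds were at Rplp0 (21.4) and Rpl3 (15.8), where LSD1 stood at 3.47 and 3.82. Of 18 cell cycle genes, H3K4me3 and Pol II were each on 17, H3K27ac on 15, LSD1 on 11, H3K4me2 on 8 and H3K4me1 on 3. Mki67 had LSD1 at 6.89, and Ccna2 was the 1 member without H3K4me3. Of 15 glycolysis genes, H3K4me3 and Pol II were on 15 and H3K27ac on 10, but LSD1 was on 5, H3K4me1 on 7 and H3K4me2 on 3. Ldha, Aldoa, Tpi1, Eno1 and Gapdh had H3K27ac and Pol II without LSD1.

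In lists of other lineages most members lacked peaks, except for NK cell genes and developmental regulators. The share of all coding genes without a peak was 37.2%. LSD1 was on 0 of 10 B cell genes, and 7 of these, Ms4a1 among them, had no peak of any antibody. Of 12 myeloid genes 7 had none, LSD1 was on Itgam, Cd14 and Cebpa, and Spi1 had the other 5 antibodies. Of 10 CD4 and regulatory T cell genes 7 had none, Cd4 and Foxp3 included, and Ikzf2 alone had LSD1 (3.05). Of 10 NK cell genes 5 had H3K4me1 and 3 had none. Nkg7, which cytotoxic T cells share, had LSD1 at 5.57 with H3K4me1, H3K4me3, H3K27ac and Pol II. Of 8 erythroid genes 5 had none, while Epor had LSD1 (5.47) and H3K4me3. Developmental regulators had H3K4me1 on 11 of 20, with H3K27ac on 0, Pol II on 1, H3K4me2 on 8, H3K4me3 on 5 and LSD1 on 5. No peak was seen on 9 of them. Hoxb4 and Gata6 held LSD1 with the 3 methylation states, and Lhx2 held these and Pol II. Of 15 genes of liver, neurons and other tissues 11 had no peak, and LSD1 was on Syp, Snap25 and Grin1, all genes of neurons.

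**Figure D4:**
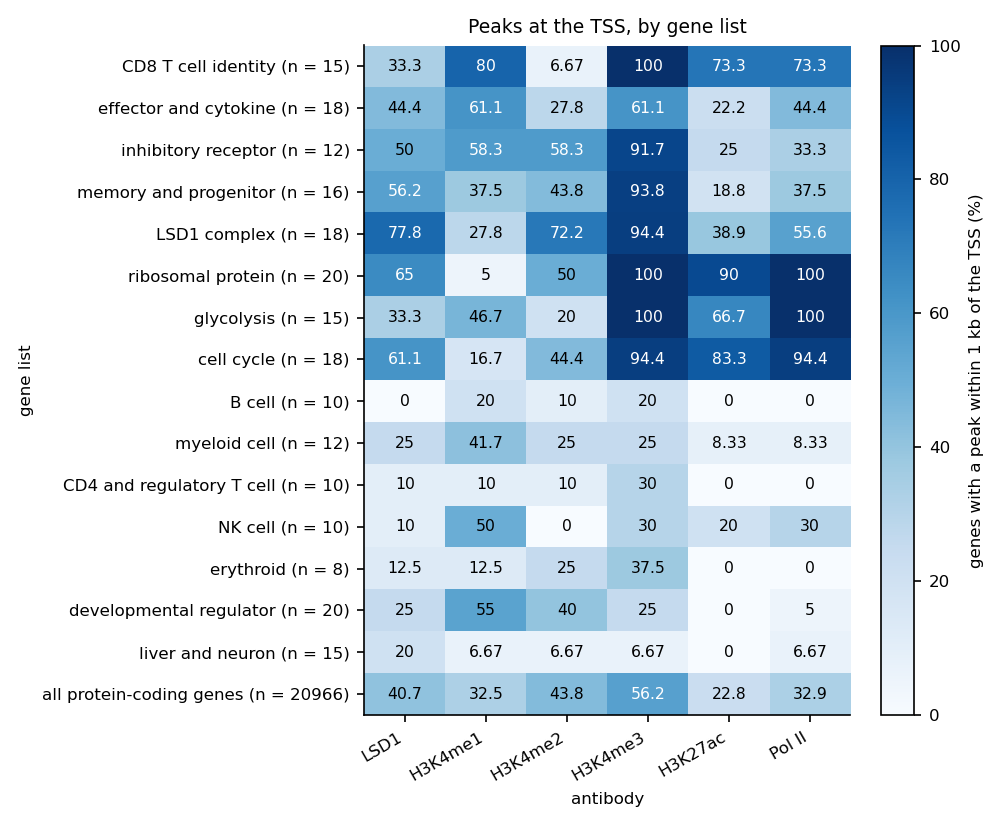
Each cell gives the share (%) of the genes of a list (rows, with the number of genes) that had a peak of the antibody (columns) within 1 kb of the TSS, with all protein-coding genes in the bottom row. LSD1 ranges from 0 of the B cell genes to 77.8% of the LSD1 complex genes, while H3K4me3 is on all CD8 T cell identity, ribosomal protein and glycolysis genes.

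LSD1 without H3K4me3 was rare at promoters, 565 of 11139. H3K4me1 was on 381 of these and H3K4me2 on 213, and 161 had no histone mark. The 153 promoters with LSD1 and none of the other 5 antibodies belonged to 146 genes, 123 of them protein-coding. The 12 coding genes with the highest LSD1 −log10 p, a set chosen after their values were seen, were Npas4, Cacng2, Celsr3, Vstm2l, Ttbk1, Iqsec3, Dlgap3, Rtbdn, Glra1, Golga7b, Cacng3 and Chrnb2. Their LSD1 folds ran from 8.47 at Chrnb2 to 14.9 at Cacng2, high by the way they were chosen. Over all 153 promoters of LSD1 alone the median fold was 4.0, and at promoters with LSD1 and H3K4me3 it was 4.44. Several are known from neurons. Npas4 encodes an activity-dependent transcription factor, Cacng2 and Cacng3 encode auxiliary subunits of glutamate receptors, Glra1 encodes a glycine receptor subunit and Chrnb2 a nicotinic acetylcholine receptor subunit. Syp (7.40) and Snap25 (7.85), which encode proteins of synaptic vesicle release, were of the same kind.

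REST is known to keep neuronal genes silent outside the nervous system and to bind CoREST, so the RE1 core, as in the capitals above, was searched on both strands in the 300 bp around LSD1 summits, a motif chosen after these genes were seen. It was in 18 of 289 promoter LSD1 peaks without a histone mark, or 6.23% (3.98 to 9.63), and in 26 of 8400 with one, or 0.310%. At distal sites it was in 47 of 4999 LSD1 peaks without a histone mark, or 0.940%, and in 7 of 6870 with one, or 0.102%. The core was in 0.0854% of the windows of all TSSs. At 1 kb to the left and right of the summits without a histone mark, it was in 0 of 5479 windows, with an upper bound of 0.0701%, and in 1 of 5479. Of the 106 LSD1 peaks with the core, 67.9% had no histone mark, against 25.6% of the other LSD1 peaks, and their median fold was 5.95 against 4.20. Among the 12 genes above, Npas4, Vstm2l, Rtbdn, Golga7b and Chrnb2 held it, and the other 7 did not. Over all 123 coding genes with LSD1 alone, 16 held it at the LSD1 summit. Those letters in a window are a description and do not show which factor was there.

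At distal regions, single antibodies prevailed. Of the 37724 regions, 27805 (73.7%) held 1 antibody: H3K4me1 alone took 15488 (41.1%), Pol II alone 6316 (16.7%) and LSD1 alone 5027 (13.3%). LSD1 with H3K4me1 was the most frequent pair, with 2960 regions (7.85%), followed by H3K4me1 with H3K4me2, with 1165 (3.09%). LSD1 with H3K4me1 and H3K4me2 took 832 regions (2.21%), the same with H3K4me3 took 524 (1.39%), and all 6 antibodies took 302 (0.801%). Regions with H3K4me3 lay within 1 kb of a GENCODE TSS, a wider annotation than curated RefSeq, in 26.0% of cases, against 8.79% without it, so part of the distal H3K4me3 lay near starts that the curated set does not hold. Pol II alone was mostly weak: 3.99% of these peaks reached a −log10 q of 3, against 57.1% of distal Pol II peaks with another antibody.

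H3K4me1 was the most frequent mark at distal LSD1 peaks, but it was less frequent there than at the other distal regions. Of 11869 distal LSD1 peaks, 48.0% (47.1 to 48.9) overlapped H3K4me1, 18.5% H3K4me2, 14.8% H3K4me3, 12.2% H3K27ac and 8.45% Pol II, and 42.1% overlapped no histone mark. With a −log10 q of at least 3 in every list the last share was 24.7%, and at equal list length 28.6% had H3K4me1. In merged regions H3K4me1 was on 49.7% of those with LSD1 and on 69.3% of those without, though a region without LSD1 is listed only where another antibody has a peak. H3K4me2, H3K4me3 and H3K27ac went the other way, on 22.3%, 16.3% and 13.7% of regions with LSD1 and on 10.0%, 8.06% and 4.45% of those without. Pol II was on 9.72% and 27.1%. At 41.9% of distal LSD1 summits the summit itself lay inside an H3K4me1 peak, a median of 513 bp from the nearest edge of that peak. The coverage by H3K4me1 fell evenly on either side, to 35.0% at 500 bp to the left and 35.2% at 500 bp to the right. Of the summits outside H3K4me1, 28.7% had it within 1 kb, and the median distance was 8.75 kb.

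The strength of the LSD1 peak went with the presence of marks. From the lowest to the highest quartile of LSD1 −log10 p, the share with H3K4me1 was 20.6%, 45.6%, 60.6% and 65.2%, and the share without any histone mark was 76.1%, 45.7%, 26.1% and 20.5%. At promoters the share without a histone mark was low in all quartiles, between 1.80% and 5.51%. Distal LSD1 peaks that overlapped no other antibody had a median fold of 3.64, with 30.7% of them at a −log10 q of 3 or more, against 4.44 and 65.2% for LSD1 with H3K4me1. Many of the peaks of LSD1 alone are thus near the threshold of the list, and how many of them would be found in a second library was not tested. The strongest are not. The region at chr3:153897141-153897658 in a coding exon of Msh4, a meiotic gene, had an LSD1 fold of 20.3, an intergenic region 9.87 kb upstream of Tspan32 had 19.8, and an intron of Ccr6, a chemokine receptor gene, had 18.4, each with LSD1 alone. The bases around the Tspan32 summit repeat 1 stretch several times with small changes. Repeats were not filtered out, and the input signal there was not examined.

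Read from the marks, LSD1 was on 22.9% of distal H3K4me1 peaks, 41.2% of H3K4me2, 42.5% of H3K4me3 and 50.3% of H3K27ac peaks. Here too the share grew with the strength of the mark, from 10.4% to 37.1% over the quartiles of H3K4me1 and from 36.2% to 63.4% over those of H3K27ac. The peaks widened as well, from a median of 635 to 1193 bp for H3K4me1 and from 442 to 825 bp for H3K27ac, and a wide peak has more room for an overlap. Distal H3K4me1 peaks with H3K27ac, the usual sign of an active enhancer, held LSD1 in 55.9% of cases, and those without H3K27ac in 20.7%, a difference of 35.2 points (32.6 to 37.8). The former were wider, 1836 against 844 bp. Within quartiles of width the difference was 12.6, 14.2, 9.70 and 24.3 points, from narrow to wide, and in the widest the medians were still 2170 against 1757 bp. With H3K4me2 the shares were 45.7% and 17.9%, and with H3K4me3 49.2% and 20.6%. Within quartiles of width these differences, 27.8 and 28.7 points over all peaks, were 15.3, 18.8, 18.3 and 17.9 for H3K4me2 and, for H3K4me3, 24.8 in the narrowest and 16.8 in the widest. In merged regions the share with LSD1 rose with the number of other antibodies, from 12.5% with 1 to 42.1% with 2, 54.0% with 3, 69.7% with 4 and 76.1% with 5. Regions of Pol II with none of the marks were the exception, with LSD1 on 0.692% of 6360, whereas with a single histone mark as the other antibody the share ran from 15.6% for H3K4me2 to 27.7% for H3K27ac. Merged regions also widen as peaks join, which leaves more room for an overlap. Their median width was 211 bp for Pol II alone, 698 bp for H3K4me1 alone and 2360 bp for all 6 antibodies. Regions without another antibody hold LSD1 by definition and are left out of this series.

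**Figure D5:**
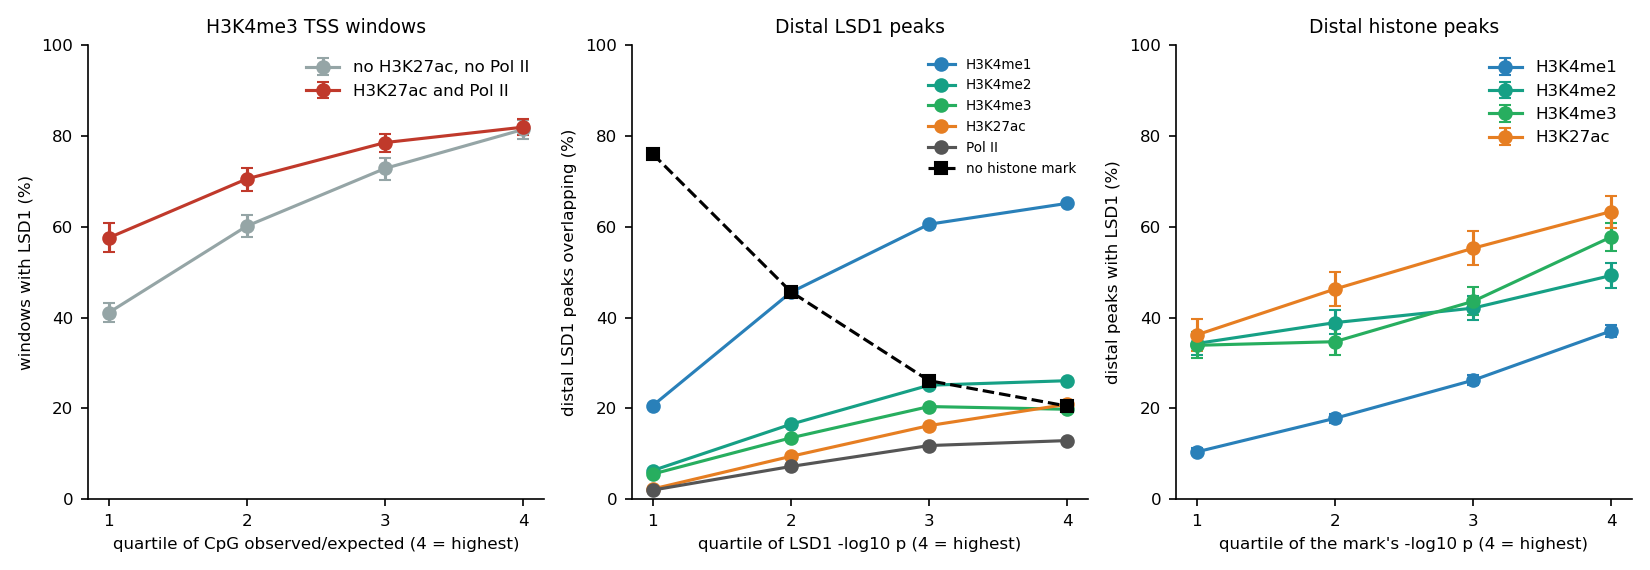
The y axes give the share (%) of H3K4me3 TSS windows with LSD1 by quartile of CpG ratio (left), of distal LSD1 peaks with each other antibody by quartile of LSD1 −log10 p (middle), and of distal histone peaks with LSD1 by quartile of the −log10 p of the mark (right), with Wilson 95% intervals left and right. The lines for H3K27ac with Pol II and for neither meet at 82.0% and 81.5% in the highest CpG quartile, and the share of distal LSD1 peaks with H3K4me1 runs from 20.6 to 65.2%.

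The leading distal regions of each combination with LSD1 were taken by LSD1 −log10 p. For LSD1 with H3K4me1 they were the regions nearest to Yae1d1 (fold 23.8), Map2k5 (20.0) and Plxna1 (19.3), whose summits are printed above. LSD1 with H3K4me1 and H3K4me2 was led by Mavs, Gm32031 and Mex3a, and that with H3K4me3 besides by Prrt3, Gm51284 and Itgb7, the last an integrin gene of homing lymphocytes with LSD1 in an intron at a fold of 12.7. The Mavs peak, in a coding exon, had the same edges within 20 bp in 2 other lists, and the all-antibody region nearest to Txndc11 in 5. Both other leading regions with all 6 antibodies lay at the start of chromosome 9, at chr9:3023440-3025945 and chr9:3000432-3004686, nearest to Mir101c, and the former also had the same edges in 2 other lists. Their LSD1 −log10 p of 1335 and 567 far exceeded those of the named regions of LSD1 with H3K4me1, of which 263 at Yae1d1 was the highest. No peaks were filtered out by region here, such as repeats, and the input signal at these places was not examined. Whether the antibodies bound there together was therefore not tested.

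Each of the 11654 distal regions with LSD1 was given to the gene of the nearest TSS. They went to 7075 genes, of which 4584 had 1 region and 248 had 5 or more. The 10 genes with most were Macroh2a3 and Maf with 15 each, Foxp1, Gm17746 and Gm30948 with 14, 7530428D23Rik with 13, Bach2 with 12, Tab2 with 11, and 4930459C07Rik and Atp10a with 10. Bcl2l11, Chd7, Cxcr4, Gm4668, Runx3 and Setbp1 also had 10. The nearest gene need not be the gene a region acts on. The 15 regions of Maf, a transcription factor gene, all lay downstream, 81.1 to 528 kb away, and 11 had H3K4me1 but 1 had H3K27ac. Foxp1, a gene of T cell quiescence, had H3K4me1 at 11 of 14 and H3K27ac at 1. Bach2, which encodes a repressor of effector genes, was unlike these: H3K27ac was at 10 of its 12 regions, Pol II at 8 and H3K4me3 at 7, and none was without a histone mark. Of these regions 11 lay upstream of its curated TSS, up to 178 kb away. The strongest, 159 kb upstream, had folds of 7.67 for LSD1, 3.64 for H3K27ac and 5.26 for Pol II. The farthest, 178 kb away, held LSD1 with H3K4me2, H3K4me3, H3K27ac and Pol II. Whether Bach2 has a start there that the curated set does not hold was not tested, so some of these regions may lie inside the gene.

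Among genes of CD8+ T cell function, Tox had 8 distal LSD1 regions, 5 with H3K4me1 and 0 with H3K27ac or Pol II. Its strongest, 40.4 kb into the gene, had folds of 9.74 for LSD1 and 4.76 for H3K4me1. Ifng had 6 regions between 22.4 and 46.0 kb away on either side, 3 with H3K4me1, 1 with H3K27ac and 2 with LSD1 alone. The one 22.4 kb upstream had the highest folds, 7.80 for LSD1 and 4.51 for H3K4me1. The 3 regions nearest to Gzmb, 13.7, 22.5 and 35.2 kb upstream, all held LSD1 with H3K27ac and Pol II, with LSD1 folds of 7.11, 3.75 and 4.58. Of the 4 regions nearest to Prf1, 3 were LSD1 alone, among them a peak of fold 5.11 in an intron of Prf1. Lef1 had 7 regions, Fasl 6 and Tcf7 5, with H3K4me1 at 5, 3 and 3 of them.

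Sequence letters of known factors were counted in the 300 bp around the 11869 distal LSD1 summits and, for comparison, 1 kb to either side, on both strands. The RUNX letters TGTGGT were in 40.8% of summits and in 22.3% of windows on the left and 22.3% on the right. They were in 56.1% of the strongest quartile, in 48.7% of LSD1 peaks with H3K4me1, in 33.2% of those with no histone mark, and in 30.1% of the centres of H3K4me1 regions without LSD1. At regions of Pol II alone the share was 20.6%, at promoter LSD1 summits 13.6% and at all TSSs 14.8%. The AP-1 letters TGANTCA were in 17.3% of distal LSD1 summits, against 9.05% and 8.96% to either side, and the ETS letters AGGAAG in 45.8%, against 32.5% and 33.3%. The CTCF letters CNAGGNGGC were in 5.16%, against 2.73% and 3.26%, and the T-box letters AGGTGTGA in 2.49%, against 1.34% and 1.55%. The TCF/LEF letters TCAAAG, in 20.3% of summits, and the GFI1 letters AAATCANNG, in 4.46%, were as frequent 1 kb away, at 20.2% and 20.6% and at 4.63% and 4.57%. The NRF1 letters GCGCANGCG were in 0.531% of distal LSD1 summits, in 6.62% of promoter LSD1 summits and in 7.38% of all TSS windows. GC content was higher at the summits, 49.0% against 44.7% beside them, and its part in these shares was not tested. None of these strings contains another.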

How the data were processed

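ChIP-seq was made by the authors from cultured CD8+ T cells of OT1 mice, and the 6 Veh lists were used, 1 library each. The authors aligned reads to mm10 (Bowtie2, uniquely mapped reads), discarded duplicates (Samtools) and ran MACS2, with 0.001 given as the p-value limit. The LSD1 and Pol II lists begin at that limit, whereas the deposited histone lists begin at a −log10 q of 3. The deposited lists give for each peak a fold enrichment, which is a ratio of pileup to local background, a −log10 p and −log10 q, and a score, which was not used here. Peaks of LSD1 and Pol II are narrow, with a summit, and histone peaks are broad. Folds of narrow and of broad peaks were not put on a common scale. The lists hold no depth, and the read numbers that the study gives per library were not used for any value here.

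Promoters and distal regions were built from curated RefSeq transcripts of GRCm38.p6 with 1 bp of overlap as the minimum. Shares carry Wilson 95% intervals and differences Newcombe intervals, which cover counting error only. No test was run. Named promoters were the 3 protein-coding genes with the highest mean percentile of fold in each of the 8 most frequent combinations. Named distal regions were the 3 with the highest LSD1 −log10 p in each of the 5 most frequent combinations with LSD1, and the 10 genes with most distal LSD1 regions. Members of the gene lists were named to describe their list, and a few members are not reported here. The samples, lists and rules were chosen with earlier results of these data known. The overlap code was checked on simulated data against bedtools 2.31.1. Python 3.11.15, numpy 2.4.6, pandas 2.3.3, pysam 0.24.0 and matplotlib 3.10.9 were used.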

Additional observations from a re-analysis of the deposited data

How the results depend on the processing

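12 main values were recomputed under 10 other settings, which gave 90 values. Of these, 31 stayed within the interval of the main value, 58 moved outside it and 1 fell to just below 0. With 1 library per antibody no value has a replicate error. No paired analysis was possible because each antibody had 1 library.

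With each list cut to 7410 peaks, promoters with no peak went from 43.2% to 51.9%, all 6 antibodies from 3.14% to 0.108%, LSD1 promoters with H3K4me3, H3K4me1 and H3K4me2 to 64.5%, 9.82% and 43.6%, H3K4me3 promoters with LSD1 to 28.9%, and the LSD1 difference between promoters with both activity marks and with neither went from 13.6 to −0.0745 points, with an interval from −2.28 to 2.11 that holds 0. Distal LSD1 peaks with H3K4me1 went to 28.6% and without a histone mark to 52.3%, distal H3K4me1 and H3K27ac peaks with LSD1 to 18.6% and 26.6%, and H3K4me1 alone to 32.3% of regions. With a −log10 q of at least 3 in every list, the promoter values were 43.8% without a peak, 2.05% with all 6, 95.9% and 74.5% of LSD1 promoters with H3K4me3 and H3K4me2, 49.0% of H3K4me3 promoters with LSD1 and a difference of 11.5 points. The distal values were 61.9% with H3K4me1, 24.7% without a histone mark, 15.8% and 39.8% of H3K4me1 and H3K27ac peaks with LSD1, and 58.9% of regions with H3K4me1 alone.

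With windows of 500 bp and of 2 kb, promoters without a peak were 45.0% and 40.6%, all 6 antibodies 1.01% and 6.06%, LSD1 promoters with H3K4me3 95.5% and 94.0%, with H3K4me1 30.4% and 64.3%, with H3K4me2 64.6% and 76.9%, and H3K4me3 promoters with LSD1 64.9% and 69.8%. With 200 bp of overlap, promoters without a peak were 43.9%, all 6 antibodies 1.91%, LSD1 promoters with H3K4me1 41.1% and with H3K4me2 71.0%, distal LSD1 peaks with H3K4me1 43.1% and without a histone mark 47.0%, and distal H3K4me1 and H3K27ac peaks with LSD1 20.6% and 39.7%. With 1 TSS per protein-coding gene, the values were 37.2% without a peak, 3.79% with all 6, 95.6%, 48.9% and 74.7% of LSD1 promoters with H3K4me3, H3K4me1 and H3K4me2, 69.3% of H3K4me3 promoters with LSD1 and a difference of 11.8 points. With marks counted within 500 bp of a distal peak, the values were 56.9% of LSD1 peaks with H3K4me1, 36.9% without a histone mark, 27.2% and 59.8% of H3K4me1 and H3K27ac peaks with LSD1, and 39.8% of regions with H3K4me1 alone. A distance of more than 5 kb gave 40.1% for the last. Both settings chosen after seeing the data moved little: without peaks of shared edges, 94.5% of LSD1 promoters had H3K4me3, and on autosomes alone 42.3% of promoters had no peak and 68.5% of H3K4me3 promoters had LSD1. The cause of these shifts was not tested.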

Other observations

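Each antibody was on a lower share of promoters of the X chromosome than of any of the 19 autosomes. LSD1 was on 16.5% of X promoters, against 27.3% on chromosome 7 and 40.6% on chromosome 19, the lowest and highest autosomes. H3K4me3 was on 37.3% (autosomes 42.0 to 57.6%), H3K4me1 on 10.1% (22.9 to 37.3%), H3K4me2 on 14.7% (32.6 to 46.1%), H3K27ac on 8.34% (17.6 to 26.1%) and Pol II on 15.3% (24.4 to 34.7%). All 6 antibodies met on 0.0751% of X promoters (2.21 to 5.58%), and 60.0% had no peak (34.0 to 50.6%). Of the X promoters with H3K4me3, LSD1 was on 42.5% (60.9 to 78.5%). On the Y chromosome, all 93 promoters, which are part of the 31603, were without a peak of any antibody. Whether the lists cover Y at all, and how many X chromosomes these cells have, was not tested.

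The share with LSD1 also differed by type of gene. LSD1 was on 38.9% of TSSs of protein-coding genes, 22.1% of those of long noncoding RNAs and 7.82% of those of microRNAs, and among those with H3K4me3 it was on 68.0%, 67.9% and 53.2%. The promoter nearest to a distal region held LSD1 for 51.7% of the regions of H3K4me1 alone, 50.5% of those of LSD1 with H3K4me1, 38.8% of those of LSD1 alone and 29.2% of those of Pol II alone. It held no peak for 22.5%, 24.5%, 39.7% and 55.3% of them.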
